A study of Homo sapiens with 8 samples.

Results

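The guides described here are the 2310 guide RNAs that a dropout screen aimed at splice junctions of the category the deposited table names fully_unique. They were chosen by that column alone, without use of any measured value, and are 4.93% of the 46829 guides of the screen. They lie on 311 junctions of 117 genes, out of 6735 junctions of 1250 genes in all. How the authors defined the category is not given in the sources used here. All 117 genes carry the type Cas13 Non-Essential, whose criterion is also not given, so the type may have been set from these same fold changes.

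The screen was run in A375, an established human melanoma line, in a single monoclonal derivative of genotype TetO-RfxCas13d, in which the Cas13d nuclease is switched on by doxycycline. Guide cassettes were amplified from genomic DNA of 8 libraries: Day 0 cells with no treatment, and cells at Days 7, 14 and 21 under 1 ug/ml doxycycline, with replicates 1 and 2 of each. The table gives for every guide a log2 fold change against Day 0 of the same replicate, so there are 6 values per guide. All results come from 1 clone, and the labels do not say whether the replicates were separate cultures, so p-values measure only the spread between these libraries.

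Cas13d is a CRISPR nuclease that cuts RNA rather than DNA and finds its target by base pairing with its guide. A guide laid across an exon-exon junction pairs over its whole length only with spliced RNA in which those exons are joined, so such guides can separate isoforms of a gene. When cells carrying a guide grow less than the rest of the pool, the guide becomes rarer and its fold change falls below 0. The guide sequences are not printed, as they were not in the files used here, and the guides are named by junction and by the number the table gives them.

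The 117 genes were unequally represented. UBR4, which encodes a very large ubiquitin ligase of the N-degron pathway, held 52 of the junctions and 395 of the guides. SUPT16H, a subunit of the FACT histone chaperone, held 20 junctions, NCBP1, the large subunit of the nuclear cap-binding complex, 19, the nuclear import receptor IPO13 15, and NRDE2 12. In contrast, 69 genes held 1 such junction and 33 held 2. Most junctions, 242 of 311, had 8 guides, and the 302 junctions with at least 3 guides were tested. Guides of a junction share their target and were averaged before any test.

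The genes also differed in what else was targeted. In 27 of them every listed junction was fully_unique. A further 44 genes had junctions of the category common as well, 24 had partial_unique junctions, and 22 had both. These 90 genes held 494 other junctions with 3570 guides, which served for the comparison within genes. All 311 fully_unique junctions lay inside the RefSeq span of their gene on GRCh38.p14, with 112 genes matched by symbol and 5 by synonym.

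Depth was inferred from the whole-number structure of the fold changes. The median of the smallest Day 0 number that the values allow was 96 in replicate 1 and 128 in replicate 2 for fully_unique guides, against 92 and 125 for all guides. At Day 21, 41 fully_unique guides (1.77%) in replicate 1 and 38 (1.65%) in replicate 2 stood at an implied number of 1, the lowest seen, against 3.03% and 3.12% of all guides. Such a guide can hardly fall further, so its fold change also depends on its Day 0 number.

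As a class, fully_unique guides were slightly depleted, and most of the shift came from UBR4. Their median log2 fold change was 0.04 and −0.04 in replicates 1 and 2 at Day 7, −0.20 and −0.17 at Day 14, and −0.22 and −0.15 at Day 21. Relative to the median of the 963 non-targeting guides of the same library, the Day 21 median was −0.17 ± 0.02 (SD, n = 2). Without UBR4 the same difference was −0.03 ± 0.02 (SD, n = 2), while the UBR4 guides alone stood at −1.06 ± 0.07 (SD, n = 2). No test of these medians is given, because with 2 replicates the exact two-sided sign-flip test has p = 0.5 as its smallest value.

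A share of the guides fell strongly. At Day 21, 308 fully_unique guides (13.3%) had a log2 fold change of −1 or lower in both replicates, below the 17.1% of all guides. The share was 3.74% for non-targeting guides and 4.54% for guides on common junctions of all genes typed non-essential. It was 14.5% for guides on partial_unique junctions. UBR4 gave 141 of its 395 guides (35.7%), and the remaining 1915 guides gave 167 (8.72%). The non-essential control genes, a set of the table's own, gave 7.23%.

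Guide by guide, limma's moderated test with Benjamini-Hochberg adjustment over all 46829 guides (adjusted p under 0.05) called 12 fully_unique guides lower at Day 7 (all guides 2.1%), 118 at Day 14 (all guides 7.96%) and 168 at Day 21 (all guides 11.1%). The 168 are 7.27% of the fully_unique guides, below the share over all guides. UBR4 held 85 of them, and outside UBR4 the share was 4.33%, against 2.71% in the control genes and 1.04% in the non-targeting set. With all days in a single limma fit and the replicate number as a block, 347 fully_unique guides were lower at Day 21, 182 at Day 14 and 1 at Day 7. That fit leaves the deviation a replicate shares over the days out of the error. Its p-values, here and below, therefore do not cover the whole spread between replicates. At Day 21 fitted alone, 2 fully_unique guides were higher (all guides 0.218%), against 82 with the replicate block.

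Averaged over guides, 59 of the 302 tested junctions (19.5%) were lower at Day 21 by limma at adjusted p under 0.05, against 25.3% of all 6401 junctions tested. The count was 48 at Day 14 (all junctions 21.9%) and 0 at Day 7 (all junctions 0.625%). At Day 7, limma gave 21 of the 302 an unadjusted p under 0.05, 18 of them lower, and the other fits called between 0 and 3 lower. With the replicate block the counts were 98 at Day 21, 76 at Day 14 and 3 at Day 7. With Day 21 fitted alone, all 65 fully_unique junctions with an unadjusted limma p under 0.05 were lower. No fully_unique junction was called higher (all junctions 0.937%). With the replicate block 11 were called higher, with all days in a single fit 3, centred on all guides 3, and without replicate 1 2.

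The 59 junctions were spread over 18 genes. UBR4 gave 36 of its 52 (69.2%), SUPT16H 4, NCBP1 3 and the RNA helicase DDX41 2. A single junction each came from 14 other genes, among them the cell-cycle gene CCND1, the splicing gene SNRNP40, the translation factor gene EIF2B5 and the capping enzyme gene RNGTT. Outside UBR4, 23 of 250 junctions (9.2%) were lower, against 9.11% of the 615 tested junctions of the control genes. Among genes typed non-essential, 14 of 731 common junctions (1.92%) and 15 of 473 single_unique junctions (3.17%) were lower. At Day 21 the spread that limma used was the same for all junctions, with a standard error of 0.36 on the log2 scale. Its calls therefore came down to a cut on the mean, and the highest mean called was −0.90.

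The lowest junction of all was chr1:19173093-19173180 in UBR4, on the minus strand (coordinates as the deposited table lists them, hg38 per the submitters' processing notes). The mean of its 7 guides was −1.14 and −2.88 at Day 7, −3.35 and −4.58 at Day 14, and −4.11 and −5.19 at Day 21. It was below 0 in all 6 libraries and lower on each later day, with a Day 21 mean of −4.65 ± 0.76 (SD, n = 2) and a limma adjusted p of 4.71e-36. All 7 guides were at −1 or lower in both replicates at Day 21. The lowest of them, guide 4, stood at −6.35 and −6.73, with its implied number going from 85 to 1 and from 97 to 1. The highest, guide 1, stood at −1.36 and −1.72. The next junction of the table in this gene, chr1:19173306-19173438, had a Day 21 mean of −1.13 and was also called lower.

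UBR4 was lower along the stretch its fully_unique junctions cover. The Day 21 means of the 52 junctions ran from −4.65 to −0.12 with a median of −1.22, and 51 of the 52 were below 0 in both replicates. With the gene cut into equal stretches from its start to its end, 7 of 10 junctions of the first stretch, 22 of 30 of the middle and 7 of 12 of the last were lower. Junctions of very different depth lay next to each other. The neighbours chr1:19105842-19106568 and chr1:19106726-19106836 had Day 21 means of −3.61 and −0.62, and chr1:19151859-19152312 and chr1:19152476-19153300 had −0.34 and −3.21. These neighbours were chosen after their values were seen.

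Among the other low junctions of UBR4, chr1:19105842-19106568 was at −0.48 and −0.94 at Day 7 and reached −3.45 and −3.77 at Day 21. Its lowest guide, guide 7, went to −6.54 and −6.66, while its guide 3 stood at −0.61 and 0.04. The junction chr1:19185286-19186539 reached −3.30 and −3.41 with all 8 guides at −1 or lower in both replicates. Its guides were the most alike of the lowest 6 junctions, from −4.13 in guide 7 to −1.87 in guide 8 as means of both replicates. The junction chr1:19152476-19153300 reached −2.76 and −3.66, and its guide means ran from −6.77 to 0.40. The other UBR4 junctions named by rank, chr1:19148626-19150576, chr1:19161736-19161826 and chr1:19129074-19138006, had Day 21 means of −2.75, −2.61 and −2.42.

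The partial_unique junctions of UBR4 were low as well. Their 22 junctions had a median Day 21 mean of −1.25, close to the −1.22 of the fully_unique ones, and 13 of the 22 were lower. The difference between both sets of guides was −0.04 ± 0.01 (SD, n = 2), with a limma standard error of 0.32 and an adjusted p of 0.974.

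CCND1 encodes cyclin D1, which drives cells through the first gap phase of the cell cycle. Its fully_unique junction chr11:69643991-69647993 was at −1.40 and −2.81 at Day 7, −2.48 and −4.24 at Day 14, and −3.46 and −4.18 at Day 21 (adjusted p 1.04e-24 by limma). It was low in every library, and replicate 2 was the lower on each day. Its second junction, chr11:69648142-69651117, with 5 guides, stood at 0.71 and 0.19 at Day 21, so the values of both junctions did not overlap. On the low junction, 6 of 8 guides were at −1 or lower in both replicates. Its guide 6 fell to −5.52 and −7.61, while guide 1 stood at 1.20 and −0.24.

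NCBP1 is part of the complex that binds the cap of newly made transcripts in the nucleus. Its 18 tested junctions ran from −3.10 to 0.62 at Day 21, and 3 consecutive ones were lower. The first, chr9:97661068-97662041, stood at −0.01 and −0.84 at Day 7 and at −3.22 and −2.99 at Day 21. The second, chr9:97662144-97662953, stood at −2.62 and −2.58 and the third, chr9:97663047-97664339, at −1.53 and −0.92. All 3 lay between 0.695 and 0.748 of the way along the gene in the direction of transcription. On both sides the junctions were not called: chr9:97658743-97660945 stood at 0.49 and −0.69, and chr9:97664443-97666762 at −0.35 and −1.40 (adjusted p 0.0543 by limma). Another junction of the gene, chr9:97650600-97651309, was among the 5 highest of all, at 0.71 and 0.54. The untested junction chr9:97643360-97645116, with only 2 guides, stood at −5.91 and −4.46, and is mentioned because of that value.

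SUPT16H showed the same unevenness. Its 19 tested junctions ran from −3.01 to 0.44, and 4 were lower at Day 21. Of these, chr14:21368441-21369203 went from 0.07 and −0.67 at Day 7 to −2.82 and −3.19 at Day 21, and its neighbour chr14:21369355-21369749 from 0.14 and −0.36 to −2.64 and −2.67. The other called junctions, chr14:21358427-21359483 and chr14:21353565-21353702, had Day 21 means of −2.30 and −1.22. The gene is on the minus strand, so the neighbouring pair comes first in the direction of transcription. Even there guides disagreed: guide 7 of chr14:21369355-21369749 stood at 0.55 and 4.59, among the 3 highest fully_unique guides, on a junction whose lowest guide mean was −6.45.

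SNRNP40, a protein of the U5 small nuclear ribonucleoprotein of the spliceosome, had 6 tested junctions, all below 0 in both replicates. Its junction chr1:31289419-31291912 stood at −0.11 and −0.83 at Day 7 and at −3.94 and −2.22 at Day 21 (adjusted p 2.09e-16 by limma). The other 5 lay between −0.68 and −0.28 and were not called. The single low junction therefore stood far outside the range of the rest of the gene.

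EIF2B5 encodes the catalytic subunit of the exchange factor that recharges the translation initiation factor eIF2. Its only fully_unique junction, chr3:184137805-184137897, stood at −0.30 and −0.91 at Day 7, −2.48 and −1.74 at Day 14, and −2.43 and −2.71 at Day 21. Of its 8 guides, 6 were at −1 or lower in both replicates. Of the remaining low junctions, the 2 of DDX41 stood at −1.56 and −1.36 and at −0.79 and −1.99.

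At the other end, no junction was past the threshold with Day 21 fitted alone. The 5 highest were in SRCAP, a chromatin-remodelling ATPase gene, ZCCHC9, NCBP1, EMC6, a subunit of a membrane-protein insertase of the endoplasmic reticulum, and WDR59, a regulator of nutrient signalling to mTORC1. The SRCAP junction chr16:30699981-30700615 stood at 0.57 and 0.78 at Day 21, and the WDR59 junction chr16:74889815-74892483 at 0.64 and 0.49. With the replicate block all 5 passed, with limma adjusted p values of 0.00855, 0.00817, 0.0106, 0.0111 and 0.0207 in that order. The block leaves part of the spread between replicates out of the error, and the 5 were picked as the highest. These p-values therefore do not establish that the junctions rose. The WDR59 junction next by coordinate, chr16:74892565-74893678, was called lower at −1.20 and −1.23. WDR59 is on the minus strand, so that junction comes before the high one in the direction of transcription. The highest guides were guide 8 of a PDCD2 junction, at 3.99 and 1.54 (limma adjusted p 0.0243), SUPT16H guide 7 given above, and guide 5 of an IPO13 junction, at 2.10 and 2.83 (limma adjusted p 0.0436).

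Depletion grew between Day 7 and Day 21. The medians of the 59 called junctions were −0.11 and −0.53 at Day 7, −1.29 and −1.39 at Day 14, and −1.66 and −1.53 at Day 21. These junctions were picked by their Day 21 values, and all days are measured against the same Day 0 libraries. Tested directly with limma, the Day 21 value was lower than the Day 7 value in 51 of the 302 junctions (all junctions 23.2%) and higher in 0, with 21 lower outside UBR4.

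Over all 302 tested junctions, the guides of a junction spread about as widely as the junction means did. The median SD over the guides of a junction at Day 21 was 0.88, and the SD of the 302 junction means was 0.85. Without UBR4 these values were 0.83 and 0.65. A junction mean averages its guides, so these SDs are of unlike measures. In the 59 low junctions, 195 of 451 guides (43.2%) were at −1 or lower in both replicates, and 41 of the 59 held at least 1 guide above 0. In the tested junctions that were not called, 111 of 1845 guides (6.0%) were that low, and 85 of the 243 such junctions held at least 1. Across fully_unique guides, the replicates correlated with Pearson's r = 0.463 at Day 21, and across junctions with r = 0.775 (n = 302 junctions). These points share libraries and, in part, genes.

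The number a guide carries within its junction, 1 to 8, showed no order. The share of guides called lower at Day 21 lay between 5.80% for number 3 and 9.06% for number 5. The listed span between both ends of a junction ran from 75 to 42724 bases. Of junctions spanning at most 623 bases 23 of 101 were lower, of those up to 2140 bases 29 of 100, and of the longest 7 of 101. These span counts include the junctions of UBR4 and are not given without them. By strand, 47 of 164 junctions on the minus strand and 12 of 138 on the plus strand were lower, and UBR4, which is on the minus strand, contributed 36 of the 47. Splice-site sharing moved with the calls as well. Of the 238 junctions that shared neither end with another listed junction of their gene, 57 (23.9%) were lower, or 21 of 186 (11.3%) without UBR4. Of the 64 that shared an end, 2 (3.13%) were lower.

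Grouped by fixed patterns in the gene symbols, 52 of the 59 low junctions, the 36 of UBR4 among them, fell in none of the functional groups, which left 85 of the genes and 227 tested junctions unassigned. The transcription group had 5 genes and 34 tested junctions with 4 lower, all 4 of them in SUPT16H (all tested junctions of such genes in the screen 16.5%). The symbol rule for splicing took in DDX41, DDX55, HNRNPH1 and RBM39, with 2 of 13 junctions lower (41.3% for that rule over the screen), both in DDX41. It leaves out the spliceosomal genes SNRNP40, with 1 of 6 junctions lower, and BUD31. Among translation factor and tRNA synthetase genes 1 of 6 junctions was lower (35.5%). None of the 8 junctions of 6 mitochondrial genes (5.48%), the 4 of 2 proteasome assembly genes (40.0%), the 5 of 5 replication and mitosis genes (32.7%), the 3 of the nuclear pore gene NUP43 (54.7%) or the 2 of the ribosomal protein genes RPS15A and RPS29 (72.4%) was called. These are counts over few junctions per group, without a test of the groups.

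The comparison with the other junctions of the same gene asks whether targeting a fully_unique junction differs from targeting the gene elsewhere. It could be made in 89 genes with at least 3 guides on each side. At Day 21 the median difference, fully_unique minus other, was −0.02 in replicate 1 and 0.01 in replicate 2, with 27 genes lower in both replicates and 26 higher in both. Gene by gene, limma at adjusted p under 0.05 called 6 genes lower (6.74%) and 9 higher (10.1%), with a standard error of 0.32 for every gene. With the replicate block, 38 genes were called. At Day 14 the counts were 5 lower (5.62%) and 7 higher (7.87%), or 20 in all with the replicate block, and at Day 7 1 lower (1.12%) and 5 higher (5.62%).

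The direction depended on which category the fully_unique junctions were set against. In the 24 genes whose other junctions were all partial_unique, the median difference at Day 21 was 0.41 ± 0.21 (SD, n = 2), with 8 genes higher and 1 lower. In the 44 genes whose other junctions were all common, it was −0.14 ± 0.04 (SD, n = 2), with 1 higher and 3 lower. The 21 genes with both categories had a median of 0.05 ± 0.03 (SD, n = 2) and 2 lower. These are different genes, and the difference between the sets was not tested. For comparison, partial_unique minus the other junctions of the same gene gave 18 genes lower (16.8%) and 2 higher (1.87%) out of 107, with a median of −0.15 ± 0.04 (SD, n = 2).

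In the 3 genes that differed most, no fully_unique junction was called and every partial_unique junction was called lower. RPS29, a protein of the small ribosomal subunit, had a single fully_unique junction, chr14:49577853-49585949, which stood at 0.25 and 0.17 at Day 7, 0.15 and −0.01 at Day 14, and 0.11 and −0.12 at Day 21. Its partial_unique junction chr14:49586049-49586284 stood at −4.05 and −5.65. The difference was 4.84 ± 0.97 (SD, n = 2), with an adjusted p of 3.38e-24 by limma. None of the 8 fully_unique guides was at −1 or lower in both replicates.

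HNRNPH1, an RNA-binding regulator of splicing, had 2 fully_unique junctions. The junction chr5:179616218-179617020 stood at 0.07 and 0.72 and chr5:179623164-179623635 at −0.14 and −0.74, and neither was called. All 5 partial_unique junctions of the gene were lower, from −5.57 to −1.47. Both fully_unique junctions share an end with one of these. The partner chr5:179616218-179616868, which shares the downstream end and differs by 152 bases at the other, stood at −2.46 and −2.99. The partner chr5:179623164-179623594, which differs by 41 bases, stood at −1.33 and −1.61. Over the gene the difference was 2.83 ± 0.41 (SD, n = 2), with an adjusted p of 4.57e-12 by limma.

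BUD31, a protein of the spliceosome, had 2 fully_unique junctions that share their downstream end, chr7:99409004-99410033 and chr7:99409245-99410033. The first stood at −0.06 and 0.20 at Day 21 and the second at −0.16 and 0.10. Its partial_unique junctions chr7:99410169-99411063 and chr7:99416260-99417428 stood at −2.25 and −0.48 and at −2.44 and −3.38. The difference was 2.16 ± 0.11 (SD, n = 2), with an adjusted p of 5.46e-08 by limma.

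RACK1, a scaffold protein on the small ribosomal subunit, differed by 1.62 ± 0.50 (SD, n = 2). Of its 2 partial_unique junctions 1 was low, at −3.32 and −3.55, and the other stood at −0.08 and −0.30, near the fully_unique junction chr5:181240345-181241491 at −0.54 and −0.06. RBM39, a splicing factor, differed by 1.22 ± 0.01 (SD, n = 2). Its fully_unique junction chr20:35709256-35713018 stood at 0.21 and 0.22, and the partial_unique junction chr20:35709274-35713018, whose other end lies only 18 bases away, at −0.80 and −1.64. Of its 7 partial_unique junctions 3 were called lower, and the other 4 had Day 21 means of −0.85, −0.23, −0.14 and 0.31. ELOB, the elongin B adaptor of cullin ubiquitin ligases, differed by 1.14 ± 0.17 (SD, n = 2). These 3 calls were lost when the median over guides replaced the mean, with limma adjusted p values of 0.396, 0.306 and 0.298. The other genes called higher were ERH, C18orf21 and TMA16, with differences of 1.01, 0.95 and 0.87, and they are named outside the ranking rule.

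On the low side, the fully_unique junctions of RABGGTB, EIF2B5, SNAPC5 and RNGTT were themselves called lower. RABGGTB, the catalytic subunit of the enzyme that attaches lipid anchors to Rab proteins, had a fully_unique junction at chr1:75791337-75791460 that stood at −0.01 and −0.09 at Day 7, −0.37 and −0.67 at Day 14, and −1.39 and −1.12 at Day 21. Its common junction chr1:75787604-75789158 stood at 1.07 and 0.61. The difference was −2.10 ± 0.52 (SD, n = 2), with an adjusted p of 9.57e-08 by limma. With the median over guides it was −0.81 (adjusted p 0.306 by limma). EIF2B5 differed by −1.43 ± 0.29 (SD, n = 2), although 6 of its 11 partial_unique junctions were themselves lower and the lowest, chr3:184144224-184144596, stood at −3.25 and −2.92. Set against its lone common junction the difference was −2.61.

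SNAPC5, a subunit of the complex that starts transcription of small nuclear RNA genes, differed by −1.07 ± 0.91 (SD, n = 2). Its fully_unique junction chr15:66494552-66497641 shares one end with each of 2 partial_unique junctions, chr15:66494552-66495329 and chr15:66495419-66497641. The fully_unique junction stood at −0.71 and −1.34, the former partner at −0.33 and 0.33 and the latter at −0.20 and 0.72. Without replicate 2 the difference was −0.43 (adjusted p 0.301 by limma, with the lone library taken to vary as the other days do). RNGTT, the enzyme that caps messenger RNA, differed by −0.95 ± 0.58 (SD, n = 2), through a junction at −1.35 and −0.47. Of its 11 other junctions none was called, and chr6:88614395-88678352, with 1 guide, was not tested. With only guides of an implied Day 0 number of at least 50, the RNGTT difference was −0.42 (adjusted p 0.486 by limma).

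RPUSD4, a pseudouridine synthase of mitochondria, and NCBP1 were close to the threshold, with differences of −0.92 ± 0.05 and −0.87 ± 0.24 (SD, n = 2) and limma adjusted p values of 0.0353 and 0.0493. Both lost the call with the median over guides, with adjusted p values of 0.428 and 0.652 by limma. For NCBP1 the other side was a single common junction of 8 guides. NEPRO and MRPL34, a protein of the mitochondrial ribosome, differed by −0.74 and −0.73 at Day 21 and were not called then. NEPRO had been the 1 gene called lower at Day 7, with a difference of −0.73 (limma adjusted p 0.00302), and was also called at Day 14, with −0.96 (limma adjusted p 0.0123). Its fully_unique side had only 3 guides.

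Pairs of junctions that share one end differ in where the other end lies. Each junction also has its own set of guides, so a pair does not compare the ends alone. There were 23 such pairs between a fully_unique and a partial_unique junction, in 17 genes, with 21 fully_unique junctions and 20 partners. The fully_unique junction was higher in both replicates in 9 pairs and lower in both in 7, and in 7 the sign differed between replicates. The median difference was −0.23 in replicate 1 and 0.24 in replicate 2. The partner was called lower in 5 pairs and the fully_unique junction in 2, both with the SNAPC5 junction, and in 0 pairs were both called. The 5 pairs were both HNRNPH1 pairs, RBM39, the pair of TMA16 with chr4:163515461-163517433 and that of C18orf21.

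The genes' GeCKO gene score, a deposited value named after a Cas9 knockout library, had a median of −1.06 with a range from −2.03 to −0.86, against a median of −1.13 in the 720 other scored genes. The score of CCND1 was −0.86 and that of UBR4 −1.13.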

How the data were processed

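Per the labels, guide cassettes were amplified by PCR from genomic DNA of A375 cells, and the titles gave each library its group and replicate. Per the file headers, the authors deposited a log2 fold change for each guide, day and replicate, and, where a gene had one, its GeCKO gene score. The submitters' processing notes name cutadapt 3.5, Bowtie 1.1.2 and hg38, without their settings. Read counts, scaling, pseudocount and filters are not given in the sources used here. After subtracting 1 constant per library, 100% of the log2 values were ratios between whole numbers (denominator at most 2000, relative tolerance 2e-11) in all 6 libraries, against at most 0.0342% with that constant moved. A guide's implied Day 0 number is the smallest denominator its 3 days have in common, a lower bound on the Day 0 number that entered its fold changes. With the pseudocount unknown, the implied number need not bound the reads themselves. PCR variation is not part of that number, and the labels name no molecular identifiers.

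The mean of 2 replicates was tested against 0 at each day with limma 3.58.1 in R 4.3.3, over all 46829 guides, over the means of all 6401 junctions with at least 3 guides, and over the fully_unique minus other difference of 89 genes. Calls are at a Benjamini-Hochberg adjusted p under 0.05. Scripts were tested on simulated data. At Day 21 limma's prior outweighed the single residual degree of freedom of a junction or gene, so all junctions, and all genes, shared a standard error whatever their number of guides. Same-numbered libraries pair with Day 0 by construction, and deviations from the day means correlated at 0.484, 0.411 and 0.647 between the 3 pairs of days over all guides. A fit with the replicate number as a block was run as an alternative. The block takes the deviation that a replicate shares over the days out of the error. Its tests of a day mean against 0 therefore leave out part of the spread between replicates, and its larger counts are not stronger evidence.

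Named by rule were the 14 lowest and 5 highest fully_unique junctions at Day 21, the 8 lowest and 6 highest genes by difference, the 4 genes with the widest range of junctions, and the lowest and highest guide of the lowest 6 junctions with the 3 highest guides, with the same sign in both replicates where a mean was ranked. Junctions and genes named beyond that were chosen after their values were seen. The members, lists and tests were chosen with earlier results of these data known. Alternatives covered centring, a joint fit of all days, robust moderation, the block, guide and Day 0 minimums, medians over guides, the comparator category and leaving out each replicate. Leaving out UBR4 was added after the data had been seen.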

Additional observations from a re-analysis of the deposited data

Results flagged for a closer look

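Values are Day 21 minus Day 7, on the log2 scale, and were singled out because the effect differed between the days by limma's test of that difference (adjusted p under 0.05). Over all tested junctions 51 fully_unique ones were lower at Day 21 than at Day 7 (all junctions 23.2%). Of the UBR4 junctions named, chr1:19105842-19106568 changed by −2.90, chr1:19152476-19153300 by −2.74, chr1:19185286-19186539 by −2.73 and chr1:19173093-19173180 by −2.64. The changes were −2.05 for chr1:19148626-19150576, −1.86 for chr1:19161736-19161826 and −1.85 for chr1:19129074-19138006. By these values the UBR4 junction that was lowest at Day 21 was not the one that changed most after Day 7. The largest changes were close together, and their order was not tested. In replicate 2, guide 4 of the lowest junction was already at −6.9 at Day 7 and stood at an implied number of 1 at Day 21. Depth therefore limited how far that guide could change later.

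In SUPT16H the changes were −2.71 for chr14:21368441-21369203 and −2.54 for chr14:21369355-21369749. In NCBP1 they were −2.68 for chr9:97661068-97662041 and −1.77 for chr9:97662144-97662953. The SNRNP40 junction changed by −2.60, the EIF2B5 junction by −1.96 and the CCND1 junction by −1.71. CCND1, which was the second lowest junction at Day 21, had the smallest change of these genes. It was close to the −1.77 in NCBP1, and the order was not tested.

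The fully_unique minus other difference changed between the days in 7 genes by the same test over 89 genes. It rose by 3.09 in RPS29, 2.18 in HNRNPH1, 1.36 in BUD31 and 1.11 in ELOB, and changed by −1.73 in RABGGTB, −0.98 in EIF2B5 and −0.94 in RNGTT. Groups of 2 replicates allow no check for an outlying library.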

How the results depend on the processing

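The cause of the changes below was not tested. Fully_unique guides called lower at Day 7, 12 in the reported fit, were 0 with all days in one fit, 5 with robust moderation, 1 with the replicate block, 6 without UBR4 and 0 to 0 with a replicate left out. At Day 14, 118 became 72 centred on all guides, 75 with all days in one fit, 182 with the block, 53 without UBR4 and 7 to 47 with a replicate left out. At Day 21, 168 became 347 with the block and 83 without UBR4. Junctions called lower at Day 7, 0 as reported, were 1 centred on non-targeting guides, 2 centred on all guides, 3 with the block and 2 with the median over guides. At Day 14, 48 became 76 with the block, 30 with the median over guides, 17 without UBR4 and 25 to 32 with a replicate left out. At Day 21, 59 became 98 with the block, 35 with the median over guides and 23 without UBR4. The 51 junctions lower at Day 21 than at Day 7 became 29 centred on all guides, 21 with the median over guides and 21 without UBR4. Of the 59 junctions, 40 were called when centred on all guides, whose median was −0.31 at Day 21, 35 with the median over guides, 59 with the block and 45 and 49 without replicates 1 and 2.

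Genes called for the within-gene difference at Day 7, 6 as reported, were 0 with all days in one fit, 0 with the median over guides, 1 against common junctions only and 0 to 0 with a replicate left out. At Day 14, 12 became 20 with the block, 3 against common junctions only, 4 with junctions weighted equally and 5 to 5 with a replicate left out. At Day 21, 15 became 38 with the block, 6 with the median over guides, 9 with at least 5 guides and 2 against common junctions only. The median difference over genes at Day 7, 0.010, was 0.000 at an implied Day 0 number of at least 50, 0.037 with the median over guides, 0.012 with at least 5 guides, 0.002 with junctions weighted equally and −0.026 against common junctions only. At Day 14 it was −0.005 as reported and −0.075 against common junctions only, and at Day 21 −0.005 as reported, 0.047 at a Day 0 number of at least 50 and −0.135 against common junctions only. The fully_unique minus non-targeting median at Day 14 was −0.18 at a Day 0 number of at least 50, −0.31 as a mean over guides and −0.048 without UBR4, and at Day 21 −0.185, −0.37 and −0.027, in the same order.

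Of 48 named values, 34 were past the threshold, and 23 were past it in every alternative run. The sign turned in 3 guides near 0: guide 1 of the CCND1 junction (−0.24 to 1.20 with a replicate left out), guide 3 of UBR4 chr1:19105842-19106568 (0.021 centred on all guides, −0.61 to 0.04 with a replicate left out) and guide 8 of NCBP1 chr9:97661068-97662041 (−0.71 to 1.14 with a replicate left out). With a replicate left out, the lone library was taken to vary as the other days do. Depth limits the lowest values, since guides at an implied number of 1 have only a bound.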
